A study of Mus musculus with 6 samples.

Results

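Sprouty 4, an inhibitor of receptor tyrosine kinase signalling, was lower in the livers of mice fed lovastatin and ezetimibe than in those of mice fed cholesterol, and 9 related genes were examined beside it. Spry4 was selected on its log2 difference, among the strongest falls in this same comparison. The other 9 were listed by family and role: the related inhibitors Spry1, Spry2, Spred1 and Spred2, the ERK phosphatase gene Dusp6, the ERK-responsive transcription factor genes Etv5 and Egr1, and the hepatic FGF receptor genes Fgfr4 and Klb. All 10 were measured, among 19938 genes in all. Because its fall chose Spry4, the values of Spry4 are given as a description with no test.

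Liver total RNA of male mice of the inbred strain C57BL/6 was hybridised to 6 Affymetrix Mouse Gene 1.0 ST arrays, 3 per diet. Both groups were 6 weeks old on arrival and had 1 week on chow to acclimatize, after which CH mice received chow with 1% cholesterol by weight and LE mice received chow with 100 mg lovastatin and 21 mg ezetimibe per 100 g. Lovastatin inhibits HMG-CoA reductase in the sterol pathway, and ezetimibe keeps intestinal cells from absorbing dietary and biliary cholesterol. The labels name no genotype beyond the strain, the time on the diets is not given in the sources used here, and chow-fed mice, described in the labels, are not analysed here. The labels call the arrays biological replicates without tying them to single animals, so the spread behind each p-value is that of these arrays and may be partly technical.

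Fibroblast growth factors bind receptor tyrosine kinases, which act through adaptor proteins, RAS and the kinases RAF and MEK to activate the kinase ERK. Active ERK drives ETS-family and immediate early transcription factors, and these in turn raise inhibitors of the same pathway, among them the Sprouty and Spred proteins and the phosphatase DUSP6, so that the levels of these genes are often read as a trace of recent ERK signalling. In hepatocytes the receptor FGFR4 works with the co-receptor beta-Klotho, encoded by Klb, to receive FGF15 from the intestine, a signal known for lowering bile acid synthesis.

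Median intensity was 158 to 163 across the 6 arrays. Limma called 2410 of 19938 genes at an adjusted p below 0.05 (12.1%), 1398 higher and 1012 lower in LE, and the share of higher genes was 58% here, 47.7% after quantile normalisation and 48.4% after median centring. The sterol-responsive genes Sqle and Insig1 rose by 5.50 (SE 0.06, adjusted p = 5.36e-09) and 1.79 (SE 0.05, adjusted p = 2.80e-07) on the log2 scale. The hepatocyte markers, with 7 of 8 measured, had 0 members called by limma (1 at an unadjusted p under 0.05, Hnf4a with 0.11, SE 0.05, adjusted p = 0.2; the cyberT-like test called 2 higher, Hnf4a and Apoa1), and their summed intensity was 128754 to 129947 in CH and 127358 to 131533 in LE. Of 10 Kupffer cell and macrophage markers, 9 rose, among them Cd68 (0.55, SE 0.05), C1qb (0.47, SE 0.05) and C1qa (0.41, SE 0.06). The number was 7 to 8 with 1 array left out. The summed intensity of the 10 markers went from 8701 to 9250 in CH to 11124 to 11544 in LE. The lists of sinusoidal endothelial (10 measured), cholangiocyte (5) and lymphocyte or neutrophil (8) markers had 0 members called by limma and 5, 0 and 1 at an unadjusted p under 0.05, with Fcgr2b (-0.13, adjusted p = 0.13), Epcam (-0.08, adjusted p = 0.436) and Nkg7 (0.24, adjusted p = 0.184) nearest to the threshold. The 5 endothelial markers were all lower in LE, and quantile normalisation, the intensity trend with robust prior and the cyberT-like test each called 3 of them lower (Stab2, Clec4g and Fcgr2b). The summed intensities of these 3 lists were 11530 to 11853 in CH and 10797 to 11463 in LE, 981 to 1057 and 975 to 1045, and 770 to 901 and 834 to 901. Among 9 stellate cell markers the collagen gene Col3a1 fell (-0.19, SE 0.05, adjusted p = 0.0389), and the sums were 11420 to 11693 in CH and 11720 to 12350 in LE. Col3a1 did not pass with any 1 array left out (adjusted p 0.0669 to 0.147; all alternatives, 0.0126 to 0.147). No marker was at 0 on any array, which does not show that each was detected. Only 3 of the 8 lymphocyte or neutrophil markers and 4 of the 5 cholangiocyte markers were outside the dimmest 33.3% of genes. The part of these cell types in the results below was not tested, and in whole liver RNA fewer cells of a type and less RNA per cell cannot be told apart.

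Spry4 was 2.63-fold lower in LE. Its log2(intensity + 1) values were 9.32, 9.09 and 9.20 on CH1 to CH3 and 7.71, 7.83 and 7.90 on LE1 to LE3. All 3 LE arrays lay more than 1 log2 unit below all 3 CH arrays, and neither diet held an array far from its others (SD 0.11 in CH and 0.10 in LE, n = 3 each). The difference of -1.39 (SE 0.08) was the eleventh lowest of the 19938 genes, next to Srebf1 (-1.44) above it in the order and Fabp2 (-1.38) below it. It ranged from -1.45 to -1.34 over the alternatives run, those that leave out 1 array included. The values come from 1 probe set, since no other is annotated to Spry4 alone.

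**Figure D1:**
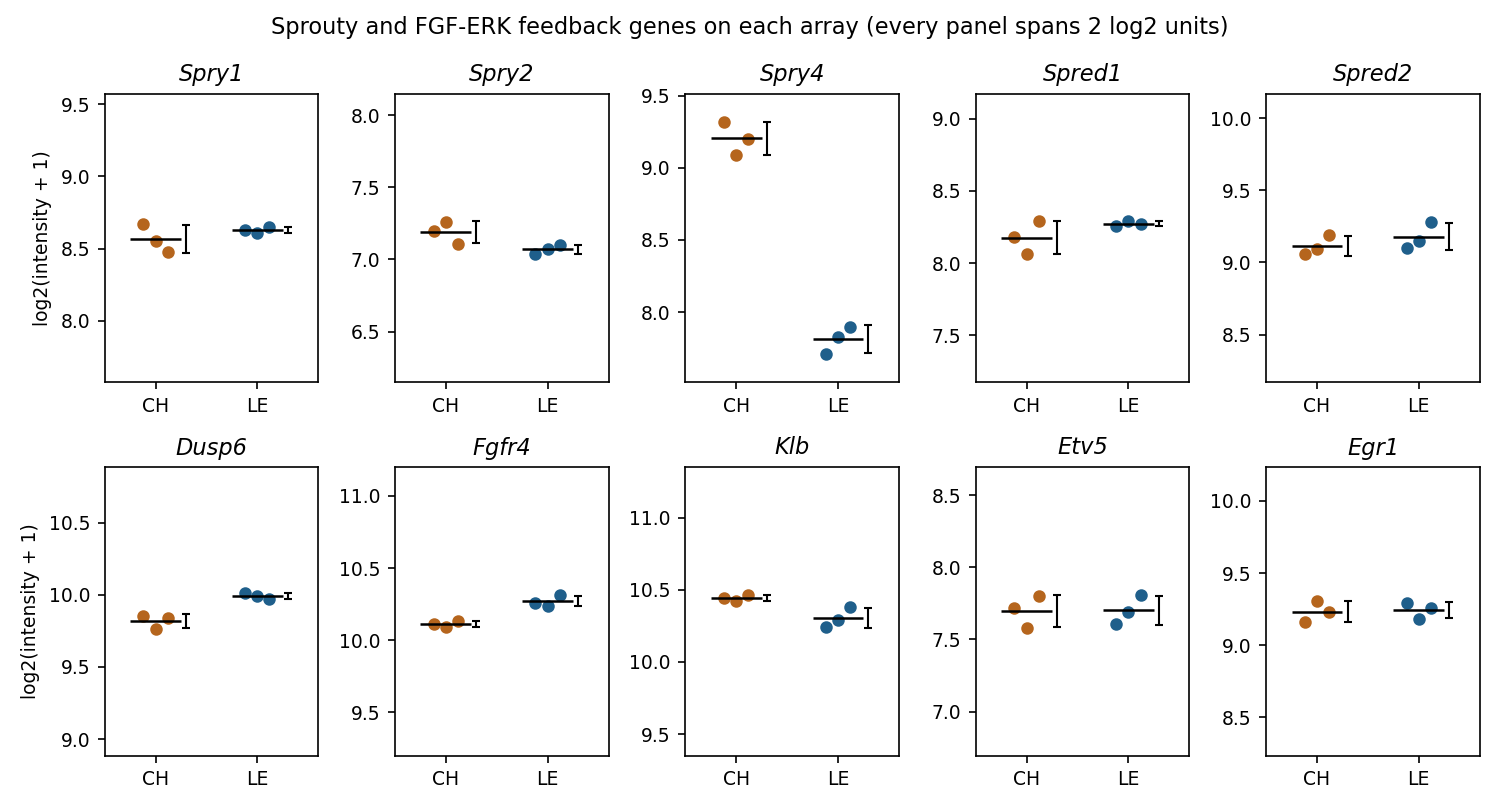
Log2(intensity + 1) of the 10 genes on each array, by diet (CH, cholesterol; LE, lovastatin and ezetimibe), with dots for arrays, a line for the mean and a bar for the SD (n = 3); the vertical axis of every panel spans 2 log2 units at a height of its own. Spry4 goes from 9.09 to 9.32 in CH to 7.71 to 7.90 in LE, while in each of the other panels the means of the diets lie within 0.17 of each other.

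The closest relatives of Spry4 showed no such gap. Spry1, which like Spry4 restrains signalling from FGF and other receptors, was at 8.67, 8.55 and 8.48 in CH and 8.63, 8.61 and 8.65 in LE. The LE arrays lay inside the range of the CH arrays. The difference was 0.07 (SE 0.06, 95% interval -0.07 to 0.21, adjusted p = 0.556).

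Spry2, an inhibitor that acts on the same receptors, was at 7.20, 7.26 and 7.11 in CH and 7.04, 7.07 and 7.10 in LE. Every LE array was below every CH array, although the nearest arrays of the diets were almost level. The difference of -0.12 (SE 0.06, 95% interval -0.25 to 0.01) did not pass (adjusted p = 0.248). Of the family members outside the 10 genes, neither Spry3 (0.06, adjusted p = 0.621) nor Spred3 (-0.03, adjusted p = 0.878) was past the threshold.

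Spred1 and Spred2 encode Sprouty-related proteins that hold back the activation of RAF by RAS. Spred1 was at 8.18, 8.06 and 8.29 in CH and 8.26, 8.29 and 8.27 in LE, a difference of 0.09 (SE 0.07, 95% interval -0.06 to 0.24, adjusted p = 0.448). The CH arrays spread over the whole range of the LE arrays. Spred2 was at 9.06, 9.09 and 9.19 in CH and 9.10, 9.15 and 9.28 in LE, a difference of 0.06 (SE 0.06, 95% interval -0.09 to 0.21, adjusted p = 0.636). The diets overlapped here too, and the second probe set of Spred2 gave 0.05 (SE 0.06). The 95% intervals of Spry1, Spry2, Spred1 and Spred2 reached down to -0.07, -0.25, -0.06 and -0.09. Spry2 was the dimmest of the 10 genes (mean 7.19 in CH), and its difference was also -0.12 with no pseudocount. Whether these arrays understate the change of dim genes was not tested. Whether the difference of Spry4 differs from those of its relatives was not tested, since Spry4 was chosen for it.

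Dusp6 encodes a cytoplasmic phosphatase that removes the activating phosphates of ERK. Its values were 9.85, 9.76 and 9.84 in CH and 10.01, 9.99 and 9.97 in LE. All LE arrays were above all CH arrays, opposite in sign to Spry4. The difference of 0.17 (SE 0.05, 95% interval 0.06 to 0.29) did not pass the test over all genes (adjusted p = 0.0646, and 0.00854 to 0.182 over the alternatives, 4 of 15 of which called it).

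The promoters of the inhibitor genes Spred1, Spred2 and Dusp6 are shown because they are the ones among the 8 of the 10 genes in the promoter table that hold the ETS core CGGAAG on either strand, the letters that ERK-driven ETS factors recognise, marked in capitals. Each stretch covers the 250 bases before the transcription start in RefSeq on GRCm38.p6: chr2:117120821-117121070, plus strand for Spred1, chr11:19924192-19924441, plus strand for Spred2 and chr10:99262981-99263230, plus strand for Dusp6.
Spred1: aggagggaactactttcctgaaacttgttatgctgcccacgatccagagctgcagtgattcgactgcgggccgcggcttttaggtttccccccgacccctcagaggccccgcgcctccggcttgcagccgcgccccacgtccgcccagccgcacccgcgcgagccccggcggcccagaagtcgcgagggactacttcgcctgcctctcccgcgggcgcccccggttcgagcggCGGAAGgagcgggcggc
Spred2: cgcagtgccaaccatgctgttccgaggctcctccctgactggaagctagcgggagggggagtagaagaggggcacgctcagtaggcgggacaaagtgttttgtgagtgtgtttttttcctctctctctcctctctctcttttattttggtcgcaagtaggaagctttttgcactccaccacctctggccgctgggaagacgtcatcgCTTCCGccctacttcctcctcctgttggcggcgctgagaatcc
Dusp6: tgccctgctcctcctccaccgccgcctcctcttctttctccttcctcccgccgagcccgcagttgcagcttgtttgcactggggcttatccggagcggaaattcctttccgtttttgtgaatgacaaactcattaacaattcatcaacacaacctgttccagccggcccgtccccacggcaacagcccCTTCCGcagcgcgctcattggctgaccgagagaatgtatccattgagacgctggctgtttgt
The match begins 17 bases before the start in Spred1, and 43 bases in Spred2 and 62 bases in Dusp6, where it reads CTTCCG on the strand shown. The core was found in 13.6% of the 32851 promoters of the table, a share by promoter. Counted by gene, it was in 3 of the 8 of the 10 genes that the table holds. The promoters of these 8 genes held 0 matches to the longer ETS string CCGGAAGT (2.88% of all promoters), which contains the core. They also held 0 matches to the cyclic AMP response string TGACGTCA (1.55%) and the AP-1 string TGANTCA (6.75%). The same held for the EGR1 string GCGGGGGCG (2.57%) and the sterol response string TCACNCCAC (1.05%). Each string was searched on both strands. The core was added to this search after the data were seen, and a match is not evidence of binding.

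At the receptor, Fgfr4 and Klb differed in opposite directions by small amounts. Fgfr4 was at 10.11, 10.09 and 10.13 in CH and 10.26, 10.24 and 10.31 in LE. All LE arrays were above all CH arrays, with little spread inside either diet (SD 0.02 and 0.04). The difference was 0.16 (SE 0.05, 95% interval 0.05 to 0.27, adjusted p = 0.075, and 0.00652 to 0.202 over the alternatives, 3 of 15 of which called it).

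Klb was at 10.44, 10.42 and 10.46 in CH and 10.24, 10.29 and 10.38 in LE. All LE arrays were below all CH arrays, with LE3 nearest to them. The difference was -0.14 (SE 0.05, 95% interval -0.26 to -0.01, adjusted p = 0.161, and 0.0223 to 0.341 over the alternatives, 3 of 15 of which called it).

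The ERK-responsive transcription factor genes were level between the diets. Etv5, an ETS factor often induced with the Sprouty genes, was at 7.72, 7.58 and 7.80 in CH and 7.61, 7.69 and 7.81 in LE. The arrays of both diets covered nearly the same range, and the difference was 0.00 (SE 0.08, 95% interval -0.18 to 0.18, adjusted p = 0.986), or -0.04 (SE 0.08) on its second probe set. Its sign turned under quantile normalisation and centring (-0.02 in both). Egr1, an immediate early zinc finger factor, was at 9.16, 9.31 and 9.23 in CH and 9.29, 9.18 and 9.26 in LE. Here too the diets overlapped, with a difference of 0.01 (SE 0.06, 95% interval -0.12 to 0.14, adjusted p = 0.946) that became -0.03 and -0.02 under those scalings.

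Limma called 0 of the 9 genes other than Spry4, beside 12.1% of all genes, and 3 of the 9 (Dusp6, Fgfr4 and Klb) had an unadjusted p under 0.05, beside 24.8% of all genes. A test like cyberT, which takes its prior variance from genes of similar intensity, called these 3 genes. In 4 of the 9 the diets did not overlap, which held for 30.6% of all genes: LE was above CH in 2 (15.9% of all genes) and below CH in 2 (14.7%). The median difference of the 9 was 0.06, beside -0.005 for all genes.

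**Figure D2:**
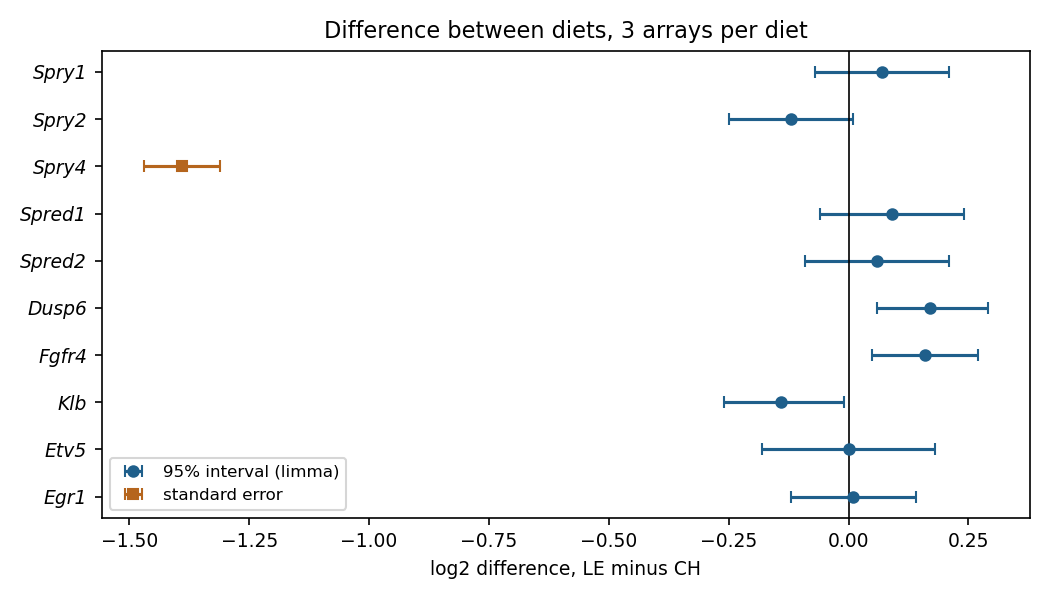
Log2 difference (LE minus CH, 3 arrays per diet) of the 10 genes; bars show limma's 95% interval for 9 genes and the standard error for Spry4, which was chosen for its fall. Spry4 stands at -1.39, and the other points lie between -0.14 (Klb) and 0.17 (Dusp6).

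The other genes of the pathway were counted in 11 lists by role. Of 136 genes, 127 were measured, and limma called 26 higher (7.01% of all genes were called higher) and 5 lower (5.08% of all genes). Among them, the largest differences were those of Rras (1.30) and Socs2 (-1.13). The share called, 24.4% beside 12.1% of all genes, is a description of lists put together with earlier results of these data known.

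Limma called 9.09% of FGF ligand genes and 33.3% of measured EGF and HGF family ligand genes, beside 12.1% of all genes. Of 22 FGF ligand genes, Fgf21, a hormone that signals through beta-Klotho, rose by 0.20 (SE 0.05, adjusted p = 0.0296), Fgf1, a tissue growth factor, fell by 0.26 (SE 0.07, adjusted p = 0.0459) and 20 did not pass (median 0.00). Only 12 of the 22 FGF ligand genes were outside the dimmest 33.3% of genes. Fgf21 was at 6.89, 6.97 and 6.92 in CH and 7.13, 7.14 and 7.13 in LE. Neither call was firm: that of Fgf21 ended with any 1 array left out (adjusted p 0.0525 to 0.127; all alternatives, 0.0088 to 0.127), and that of Fgf1 without CH1, CH3, LE1 or LE2 (adjusted p 0.126 to 0.149; all alternatives, 2.98e-04 to 0.149). Fgf15, made in the intestine, gave -0.05 (SE 0.06, adjusted p = 0.698) in these livers, where it was among the dimmest 33.3% of genes. Of 9 measured EGF and HGF family ligand genes 3 rose: Tgfa, which encodes a ligand of the EGF receptor (0.37, SE 0.07, adjusted p = 0.0116), Nrg1 (0.37, SE 0.06, adjusted p = 0.00875) and Nrg4 (0.30, SE 0.05, adjusted p = 0.00942), which encode ligands of other ERBB receptors. The other 6 did not pass (list median 0.05), and in Ereg (-0.22, adjusted p = 0.0631) and Epgn (-0.25, adjusted p = 0.114), named after their values were seen, all LE arrays were below all CH arrays. Without LE3 Tgfa missed the threshold (adjusted p = 0.0509, with 3.74e-05 as the lowest of the alternatives).

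Limma called 16.7% of 12 other receptor tyrosine kinase genes of liver, beside 12.1% of all genes, and those called were lower. Egfr, the EGF receptor gene, was at 13.37, 13.33 and 13.34 in CH and 12.99, 12.94 and 13.03 in LE and fell by 0.36 (SE 0.05, adjusted p = 0.0025). Met, the HGF receptor gene, was at 11.00, 11.02 and 11.11 in CH and 10.71, 10.69 and 10.81 in LE and fell by 0.31 (SE 0.06, adjusted p = 0.011). The diets did not overlap for either gene, which was so for 30.6% of all genes, and both calls held under each alternative run. The other 10 of 12 receptor tyrosine kinase genes of liver did not pass (list median -0.01). Of 6 further FGF receptor and co-receptor genes limma called 0, and 0 had an unadjusted p under 0.05, from Fgfr3 at -0.10 (SE 0.05, adjusted p = 0.306, called after quantile normalisation at 0.0457) to Fgfrl1, a receptor without a kinase domain, at 0.09 (SE 0.05, adjusted p = 0.331).

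In the cascade from adaptors to ERK, 20 of 28 genes were measured, and 5 rose while 15 did not pass (median 0.10). The share called was 25%, beside 12.1% of all genes. Rras, a small GTPase related to RAS, rose 2.46-fold (log2 1.30, SE 0.06, adjusted p = 4.97e-06), from 10.68, 10.78 and 10.82 in CH to 12.06, 12.02 and 12.10 in LE. Its 3 LE arrays stood above all CH arrays by more than 1 log2 unit, in the opposite direction to Spry4. Cblb, a ubiquitin ligase of activated receptors, rose by 0.34 (SE 0.06, adjusted p = 0.0109) and Rps6ka3, a kinase downstream of ERK, by 0.30 (SE 0.08, adjusted p = 0.0491). Rps6ka3 passed under 7 of 15 alternatives, and with 1 array left out it passed only without LE1 (adjusted p 0.0281 to 0.135; all alternatives, 0.00379 to 0.135). Higher cascade genes numbered 2 without CH1, CH2 or CH3, 3 without LE2 or LE3 or after centring, and 8 without the dimmest 33.3% of genes, with an intensity trend and robust prior or with the cyberT-like test.

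Limma called 40% of the other MAP kinase phosphatase genes and 7.69% of the other receptor feedback inhibitor genes, beside 12.1% of all genes. Of 10 phosphatase genes beside Dusp6, 4 rose and 6 did not pass (median 0.14). Dusp14 rose by 0.58 (SE 0.05, adjusted p = 2.34e-04), from 8.43, 8.47 and 8.43 to 9.09, 8.99 and 9.01. Dusp1, which acts in the nucleus, rose by 0.42 (SE 0.06, adjusted p = 0.00246) and Dusp10, which prefers the stress kinases, by 0.35 (SE 0.05, adjusted p = 0.00258). The fourth was Dusp8 (0.31, SE 0.05, adjusted p = 0.00841), named here after its value was seen. These 4 passed in each alternative run. Of 13 other receptor feedback inhibitors, Socs2, which restrains growth hormone signalling, fell 2.20-fold (log2 -1.13, SE 0.07, adjusted p = 4.14e-05), from 11.05, 11.01 and 11.01 in CH to 9.74, 9.94 and 9.99 in LE, and 12 did not pass (median 0.01). Like Spry4, Socs2 had all LE arrays about 1 log2 unit or more below all CH arrays.

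**Figure D3:**
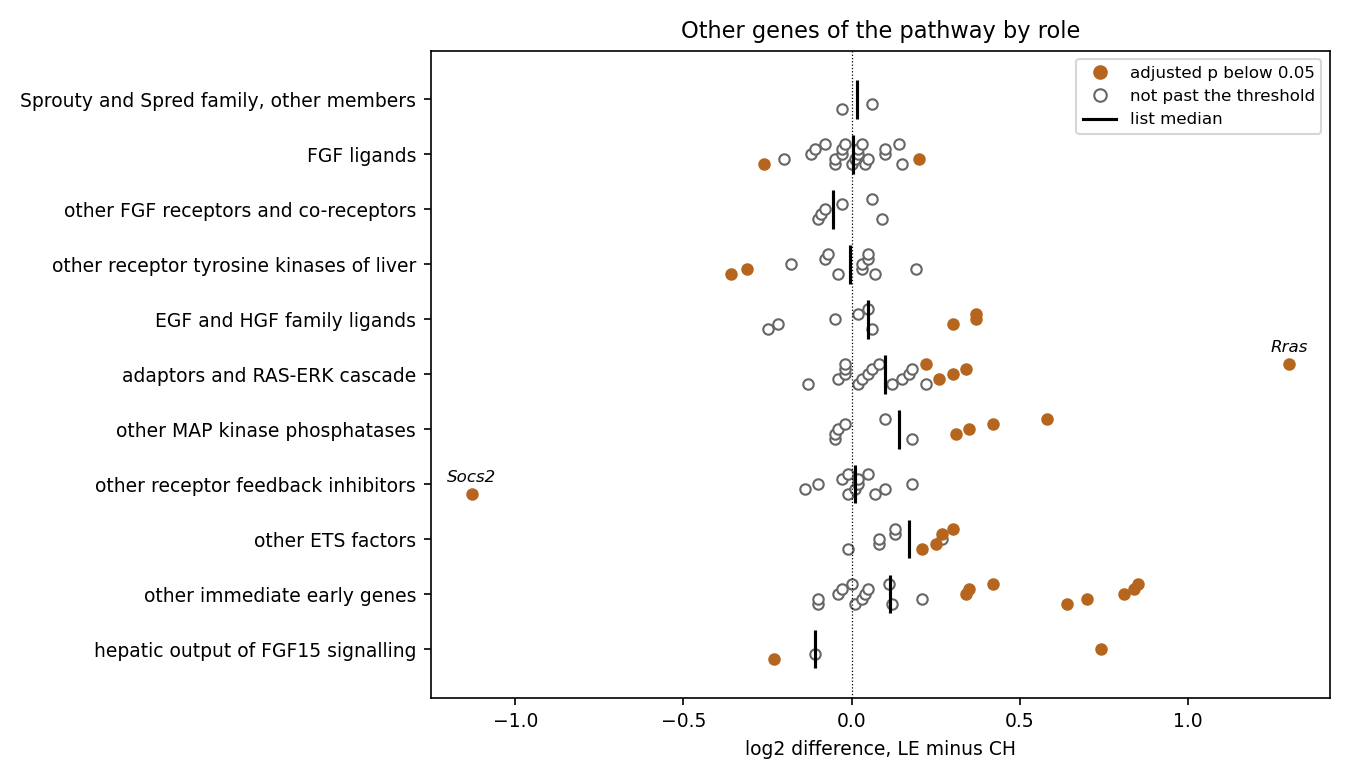
Log2 difference (LE minus CH, horizontal axis) of 127 other pathway genes in 11 lists; filled dots passed limma's test at an adjusted p of 0.05, open dots did not, and a black line marks the median of each list. Rras at 1.30 and Socs2 at -1.13 lie farthest out, and the filled dots of the phosphatase, ETS factor and immediate early lists all lie to the right of 0.

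Transcription factor genes at the end of the pathway were unevenly affected. Of 20 immediate early genes beside Egr1, 8 rose and 12 did not pass (median 0.11). This was 40% called, beside 12.1% of all genes, and the number that rose was 7 to 8 with 1 array left out. Klf6, a zinc finger factor, rose by 0.85 (SE 0.08, adjusted p = 4.34e-04), Btg2, a growth-inhibiting gene, by 0.84 (SE 0.08, adjusted p = 3.03e-04) and Atf3, a stress-induced factor, by 0.81 (SE 0.12, adjusted p = 0.00357). The others, named after their values were seen, were Jun (0.70), Zfp36 (0.64), Jund (0.42), Srf (0.35) and Myc (0.34); without LE2 or LE3 Myc missed the threshold (adjusted p = 0.0587 at most, with 8.10e-04 as the lowest of the alternatives). Fos, a classical ERK-induced partner of Jun, was at 6.86, 6.88 and 6.71 in CH and 6.91, 6.76 and 6.80 in LE (0.01, 95% interval -0.15 to 0.17, adjusted p = 0.96), and was also chosen after its values were seen. The measured values of Fos and Egr1 thus differed little between the diets while Jun was higher in LE. Fos was among the dimmest 33.3% of genes, and whether these arrays understate the change of dim genes was not tested. Of 10 ETS factor genes beside Etv5, 4 rose and 6 did not pass (median 0.17), again 40% called beside 12.1% of all genes. Ets2 (0.30, SE 0.07, adjusted p = 0.0285), Etv6 (0.27, SE 0.07, adjusted p = 0.0418) and Elk1 (0.25, SE 0.06, adjusted p = 0.0293) had the largest differences among the 4 that passed, with Etv3 (0.21, adjusted p = 0.0417) the fourth, and Etv1 (0.27, adjusted p = 0.0833) did not pass. The ETS count was 0 without CH2, CH3, LE2 or LE3, 1 without CH1, 3 without LE1 and 2 after centring. Macrophages also express many immediate early genes, and 9 of 10 of their markers were called higher in LE, as given above. Whether this bears on the genes of this paragraph was not tested.

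The promoters of Dusp1, Dusp8 and Btg2 are shown as those of the genes of these lists that rose and hold the cyclic AMP response string TGACGTCA, in capitals, in the 250 bases before their start. In RefSeq on GRCm38.p6 they lie at chr17:26508473-26508722, minus strand (Dusp1), chr7:142095285-142095534, minus strand (Dusp8) and chr1:134079156-134079405, minus strand (Btg2).
Dusp1: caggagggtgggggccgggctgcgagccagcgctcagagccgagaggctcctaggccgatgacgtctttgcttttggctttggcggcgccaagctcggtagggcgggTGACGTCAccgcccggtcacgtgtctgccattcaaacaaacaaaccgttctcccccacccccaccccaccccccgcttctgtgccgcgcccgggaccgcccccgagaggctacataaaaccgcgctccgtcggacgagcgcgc
Dusp8: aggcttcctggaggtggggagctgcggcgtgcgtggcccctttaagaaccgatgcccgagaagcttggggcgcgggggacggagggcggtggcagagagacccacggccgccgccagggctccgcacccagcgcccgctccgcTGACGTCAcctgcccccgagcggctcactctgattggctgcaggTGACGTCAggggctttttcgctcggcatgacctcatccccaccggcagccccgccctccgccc
Btg2: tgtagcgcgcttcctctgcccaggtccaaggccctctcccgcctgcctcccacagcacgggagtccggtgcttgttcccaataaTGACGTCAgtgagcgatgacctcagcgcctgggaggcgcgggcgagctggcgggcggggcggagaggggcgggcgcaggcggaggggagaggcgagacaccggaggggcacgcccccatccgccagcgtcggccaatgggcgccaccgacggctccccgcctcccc
The string begins 143 bases before the start in Dusp1, 107 and 63 bases before it in Dusp8 and 166 bases before it in Btg2. Among the measured genes of the pathway lists 8 held it, of which these 3 rose and 5 (Braf, Errfi1, Flt1, Ptpn11 and Tesk1) did not pass. The string was found in 1.55% of all 32851 promoters, a share by promoter and not by gene. It was picked for display after these counts were seen. Of the other strings searched in the same genes, the EGR1 string was in 14 (2 rose, 12 did not pass), the AP-1 string in 5 (1 rose, 1 fell, 3 did not pass), and the longer ETS string in 4 and the sterol response string in 2, none of which passed. The ETS core was in 17 (4 rose, 1 fell, 12 did not pass).

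Cyp8b1 and Cyp7a1, bile acid synthesis genes that FGF15 signalling is known to lower, went in different directions. Cyp8b1, the sterol hydroxylase that shapes the bile acid pool, rose by 0.74 (SE 0.05, adjusted p = 5.85e-05), whereas Cyp7a1, whose product catalyses the first step from cholesterol to bile acids, dropped by 0.23 (SE 0.05, adjusted p = 0.0227). With 1 array left out Cyp7a1 passed only without LE3 (adjusted p 0.0364 to 0.0952; all alternatives, 9.78e-06 to 0.0952). Nr0b2, listed beside them as hepatic output of FGF15 signalling and not as a bile acid synthesis gene, gave -0.11 (SE 0.06, adjusted p = 0.265). Limma called 66.7% of the 3 listed genes, beside 12.1% of all genes.

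The 5 genes whose values lay nearest to those of Spry4 over the 6 arrays are given as a description. Likeness was measured as the root mean square difference of log2 values after each gene was centred on its own mean, so it mostly follows the size of the difference between the diets. Fabp2, a fatty acid binding protein gene, was nearest (0.0621), followed by the lipogenic factor gene Srebf1 (0.0715), the lipoprotein lipase gene Lpl (0.0796), the hydroxysteroid dehydrogenase gene Hsd3b2 (0.0956), which has close copies that may share probes, and Ppm1k (0.0988), a phosphatase gene of branched-chain amino acid breakdown. Their differences were -1.38, -1.44, -1.27, -1.30 and -1.24.

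**Figure D4:**
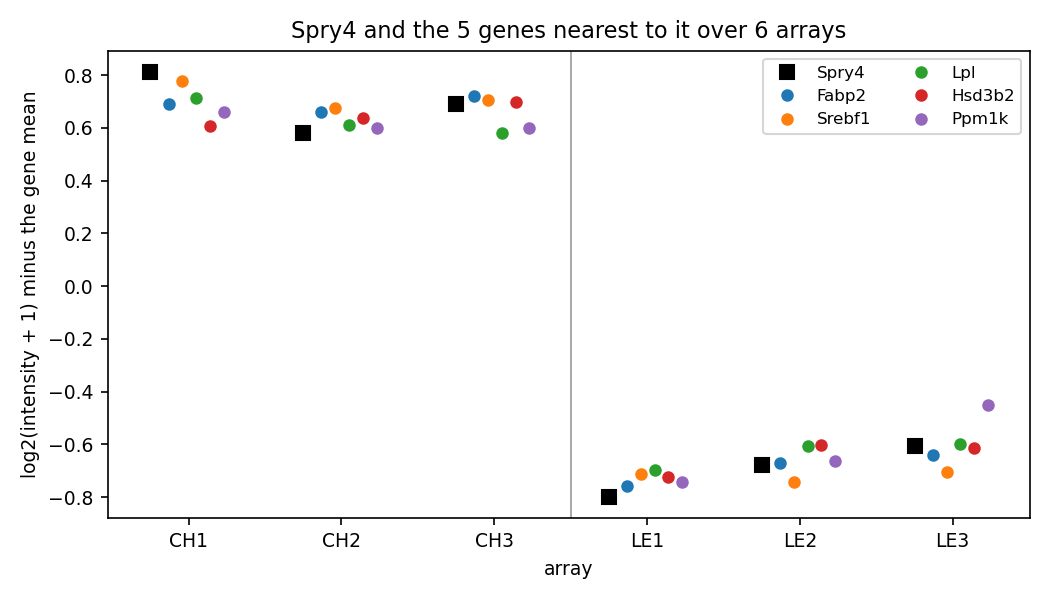
Log2(intensity + 1) of Spry4 (squares) and the 5 genes nearest to it (dots), each minus its own mean over the 6 arrays, by array. All 6 genes lie above 0 on the CH arrays and below 0 on the LE arrays, with differences between the diets from -1.44 (Srebf1) to -1.24 (Ppm1k).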

How the data were processed

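Deposited probe set intensities of the 6 arrays, on a linear scale from their range, were used as the authors gave them; how background, normalisation and probe set summary were handled is not stated there or in the labels, hence not given in the sources used here. Per the series design, the authors used Partek Genomics Suite and cyberT. Values were taken as log2(intensity + 1), and whether these arrays understate the change of dim genes was not tested. Of 35556 probe sets, 21789 carried 1 gene in the platform annotation, 1621 several and 12146 none; for each gene the single-gene probe set with the highest mean was kept (19938 genes, 19856 matched to RefSeq by gene identifier, 0 symbols changed). Genes with no such probe set are not analysed here. LE was compared with CH by limma 3.58.1 in R 4.3.3 over all genes, two-sided, with Benjamini-Hochberg adjustment and a threshold of 0.05. An exact permutation test of 3 against 3 arrays cannot go below 0.1. With 3 arrays per diet, precision is limited. The members and lists were chosen with earlier results of these data known. Named were the 10 genes, up to 3 called genes of each list with the largest difference or else the gene with the smallest p, and the 5 genes nearest to Spry4; other genes (such as Spred3, Fgf15, Fgfrl1, Nr0b2, Etv3, Etv1, Stab2, Clec4g, Apoa1 and those so marked) were named after their values were seen. Alternatives were a cyberT-like test (101 neighbouring genes, prior weight 10), an intensity trend with robust prior, quantile normalisation, median centring, a filter on the dimmest 33.3% of genes, pseudocounts of 16 and none, averaged or other probe sets, a replicate block and the loss of each array in turn. The fits were tested on simulated data. Promoters came from RefSeq (GRCm38.p6), where 8 of the 10 genes matched; the 250 bases before each start were searched and the 50 bases after it were not. Proteins were not analysed here. Plots were drawn with matplotlib 3.10.9 under Python 3.11.15, and tables made with pandas 2.3.3 and numpy 2.4.6.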

Additional observations from a re-analysis of the deposited data

How the results depend on the processing

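The number of genes called, 2410, was 1489 to 1868 with 1 array left out, the lowest without CH1 (1489) and LE2 (1514), and 3746 by the cyberT-like test. Of the 9 genes other than Spry4, 0 were called; the number was 1 after quantile normalisation (Klb) and with a pseudocount of 16 (Dusp6), 2 without the dimmest 33.3% of genes (Dusp6 and Fgfr4), 3 with the intensity trend and robust prior or by the cyberT-like test (Dusp6, Fgfr4 and Klb), and 0 with any 1 array left out. The other pathway genes called, 31, numbered 21 to 27 with 1 array left out and 21 to 38 over all alternatives, among them 37 by the cyberT-like test, an alternative chosen for this count after seeing the data. The sign of Etv5 turned under quantile normalisation (-0.02), centring (-0.02), the mean of its probe sets (-0.02) and its other probe set (-0.04), and ranged from -0.06 to 0.06 with 1 array left out; that of Egr1 turned under quantile normalisation (-0.03) and centring (-0.02), and ranged from -0.03 to 0.05 with 1 array left out. The cause was not tested. Deviations of same-numbered arrays of the diets had r = -0.0214, -0.0967 and 0.16 across genes, beside -0.228 to 0.246 for arrays of unlike number. With 3 arrays per diet these correlations cannot show whether the numbers pair the arrays. With the replicate block 1688 genes, 0 of the 9 and 21 other pathway genes were called. Over 43 named genes other than Spry4 and their alternatives, 645 values in all, 563 kept direction and side of the threshold, 56 lost the call, 16 gained it and 10 changed sign. The number of arrays limits what could be called, and small differences between the diets are read with the intervals given.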

Other observations

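Genes next to Spry4 on its chromosome, chosen after the fall of Spry4 was known, differed far less than it did. In the gene order of RefSeq on GRCm38.p6, Ndfip1, an adaptor of ubiquitin ligases that lies next to Spry4, was lower in LE (log2 -0.21, SE 0.05, adjusted p = 0.0334, and 2.57e-04 to 0.109 over the alternatives), and Arhgap26, a regulator of small GTPases and the neighbour on the other side, gave 0.04 (SE 0.07, adjusted p = 0.819). Fgf1, the third gene on that side, fell by 0.26 as given above, and Rnf14, the third on the side of Ndfip1, gave 0.23 (SE 0.06, adjusted p = 0.0539). The other 2 of the 6 nearest genes, Gnpda1 and Gm19774, were not analysed here.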
